A study of Mus musculus with 12 samples.

Results

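The globin genes described here were the 9 mouse genes Hba-a1, Hba-a2, Hba-x, Hbb-b1, Hbb-b2, Hbb-bs, Hbb-bt, Hbb-bh1 and Hbb-y, found by symbol among 18221 listed genes in the spleens of 12 mice. They were picked because their levels differed between the groups in these same spleens, so their levels are given as a description, and where a fit across all genes also calls some of them, those calls are listed but are no evidence. All mice were ICR males, an outbred stock, which entered the study at 3 weeks and were sampled at 8 weeks of age. Con-sa mice (n = 3) received saline. B-sa mice (n = 3) received a single injection of busulfan, an alkylating drug that depletes the bone marrow, at 40 mg/kg, with saline. B+Con-FMT mice (n = 3) received the same busulfan injection and then oral fecal microbiota transplantation (FMT) from control donors, daily for 2 weeks. B+A10-FMT mice (n = 3) received busulfan and FMT from donors that had been dosed with alginate oligosaccharide (AOS) at 10 mg/kg. The donor material was pooled small-intestine content, so each FMT group tested 1 pool. Values are RPKM, read counts scaled to transcript length and to the reads mapped in each library, summed per gene and given as mean ± SD over the 3 mice of a group.

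Hemoglobin, the oxygen carrier of red cells, is built from alpha-type and beta-type globin chains, each holding a heme group. Embryonic globin genes are used by the first red cells of the yolk sac, and adult genes replace them in the fetal liver and the marrow. The mouse spleen removes aged red cells and also makes new ones, so its RNA holds globin transcripts of reticulocytes and erythroblasts. Mouse stocks carry alternative versions of the adult beta-globin locus: one holds Hbb-bs and Hbb-bt, the other holds Hbb-b1 (the major chain) and Hbb-b2 (the minor chain). The locus version of each mouse was not genotyped, so treatment group and inherited locus version cannot be told apart in these samples.

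Hba-a1 and Hba-a2, and likewise Hbb-bs and Hbb-bt, have nearly the same coding sequence, which limits how well reads can be assigned. The stretches around the only coding difference of each pair are shown, while the other differences between the transcripts lie outside the coding sequence (GENCODE M21 transcripts, GRCm38, coding strand, 5′ to 3′, capital at the differing base).
Hba-a1: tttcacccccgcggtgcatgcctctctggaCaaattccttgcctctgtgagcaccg
Hba-a2: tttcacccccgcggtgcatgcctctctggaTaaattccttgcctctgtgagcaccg
Hbb-bs: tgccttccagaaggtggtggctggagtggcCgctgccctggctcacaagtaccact
Hbb-bt: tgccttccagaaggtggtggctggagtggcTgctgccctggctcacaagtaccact
Hba-a1 and Hba-a2 differed at 1 of 429 coding bases, C381T, counted from 1 at the A of the start codon with the base of Hba-a1 first. Hbb-bs and Hbb-bt differed at 1 of 444 coding bases, C417T, with the base of Hbb-bs first. In their full transcripts, 86.9% of the 50-base windows of Hba-a2 were also in Hba-a1, and 58.3% of those of Hbb-bt were also in Hbb-bs. The embryonic genes stood further apart: Hbb-bs shared 74.3% of its coding bases with Hbb-y and 74.1% with Hbb-bh1, and Hba-a1 shared 62.0% with Hba-x, aligned without gaps. In the annotation, Hba-x (chr11:32276400-32278116), Hba-a1 (chr11:32283511-32284465) and Hba-a2 (chr11:32296489-32297298) lay on the plus strand of chromosome 11. Hbb-bt (chr7:103812524-103813996), Hbb-bs (chr7:103826534-103828096), Hbb-bh1 (chr7:103841637-103843164) and Hbb-y (chr7:103851749-103853216) lay on the minus strand of chromosome 7. Each of these 7 genes had 3 exons. Hbb-b1 and Hbb-b2 had no position in that annotation, and their sequences were not used here.

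The 130 bases before the RefSeq start of Hbb-bs, Hbb-bt and Hbb-y are shown because the first and second of these genes moved together while the third stayed near 0 (RefSeq, GRCm38.p6, minus strand, 5′ to 3′). Capitals mark the motif CACCC, the box CCAAT, the TATA-type motif ATATAA and the GATA-type motif GATAA, on either strand, which may overlap. RefSeq and GENCODE place these starts differently, so the Hbb-bs window lies inside the GENCODE gene given above, and those of Hbb-bt and Hbb-y overlap the ends of theirs.
Hbb-bs, chr7:103827929-103828058: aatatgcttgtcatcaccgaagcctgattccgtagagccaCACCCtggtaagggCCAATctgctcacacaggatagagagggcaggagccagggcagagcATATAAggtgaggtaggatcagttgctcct
Hbb-bt, chr7:103813924-103814053: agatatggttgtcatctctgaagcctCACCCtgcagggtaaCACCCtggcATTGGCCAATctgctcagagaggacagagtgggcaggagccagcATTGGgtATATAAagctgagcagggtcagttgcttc
Hbb-y, chr7:103853208-103853337: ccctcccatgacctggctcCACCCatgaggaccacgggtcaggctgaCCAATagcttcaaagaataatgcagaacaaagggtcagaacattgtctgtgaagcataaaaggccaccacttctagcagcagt
The motif CACCC, the box CCAAT and the motif ATATAA were all present in the Hbb-bs, Hbb-bt, Hba-a1 and Hba-a2 windows. Hbb-y lacked ATATAA in this window, and Hba-x lacked CCAAT but held GATAA. Of 32851 promoter windows of this length, the motif CACCC was in 33.7%, the box CCAAT in 22.4%, the TATA-type motif in 4.75% and the GATA-type motif in 11.4%. The first 3 were together in 0.323%.

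Adult globin made up 23.3% to 32.4% of the summed RPKM of a spleen, and that sum was highest in the B-sa mice. The summed RPKM of the 6 adult genes was 179177, 181322 and 174118 in the Con-sa mice and 206080, 250227 and 218027 in the B-sa mice. It was 196162, 222414 and 182066 in the B+Con-FMT mice and 193367, 163919 and 157868 in the B+A10-FMT mice. The B-sa mice thus stood above all Con-sa and B+A10-FMT mice and overlapped with the B+Con-FMT mice. On the log2 scale the mean sum of the B-sa mice exceeded that of the Con-sa mice by 0.33. From the B-sa level it fell by 0.17 with FMT from control donors and by 0.39 with FMT from AOS donors. These last differences share the B-sa mice with the first, so they are not separate evidence. In bulk tissue, fewer red cell precursors and less globin RNA per cell cannot be told apart.

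Hba-a1, the adult alpha-globin gene that held nearly all of the alpha signal, followed the same order. Con-sa mice had 104316, 106905 and 102909 RPKM, B-sa mice 120170, 144299 and 122837, B+Con-FMT mice 113624, 128888 and 102000, and B+A10-FMT mice 110041, 95001 and 93037. The group means ran from B-sa (129102 ± 13228) through B+Con-FMT (114838 ± 13485) and Con-sa (104710 ± 2027) to B+A10-FMT (99360 ± 9302). Neighbors in this order overlapped, whereas the B-sa mice did not overlap with the Con-sa or the B+A10-FMT mice. Hba-a2, the second adult alpha gene, was listed far lower, with Con-sa mice at 53.0, 64.6 and 65.7 RPKM, B-sa mice at 68.6, 95.1 and 96.0, B+Con-FMT mice at 76.3, 97.7 and 78.6, and B+A10-FMT mice at 61.5, 54.0 and 74.8. It was 0.0508% to 0.0803% of the alpha signal in every mouse. Given the shared sequence above, the split between Hba-a1 and Hba-a2 is uncertain and their sum is the safer measure.

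**Figure D1:**
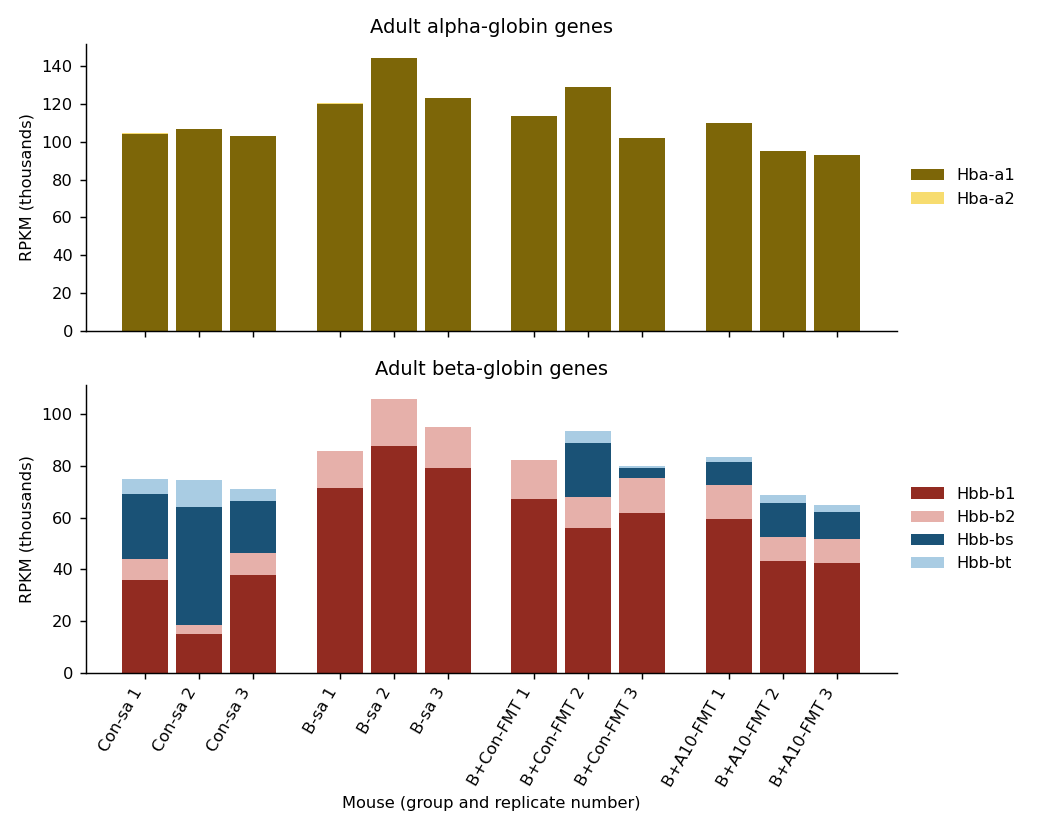
RPKM (axis in kilo-RPKM) of the adult alpha-globin genes (top) and the adult beta-globin genes (bottom) in each of the 12 mice, stacked by gene. Hba-a2 is too low to be seen on this scale, and the Hbb-bs and Hbb-bt blocks are missing from the B-sa mice and from B+Con-FMT 1, whose pair share was at most 0.0619%.

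The adult beta-globin signal was listed under different genes in different mice. Hbb-bs was high in all Con-sa mice (25330, 45902 and 20290 RPKM) and near the bottom of its range in all B-sa mice (30.5, 17.3 and 9.20 RPKM). The B+Con-FMT mice held 36.4, 20930 and 4025 RPKM, so 1 mouse resembled the B-sa mice and the others did not. The B+A10-FMT mice held 8916, 13234 and 10623 RPKM, below every Con-sa mouse and above every B-sa mouse. For Hbb-bt, its partner gene, Con-sa mice had 5653, 10095 and 4650 RPKM, B-sa mice 12.1, 16.4 and 11.7, B+Con-FMT mice 14.7, 4459 and 845, and B+A10-FMT mice 1903, 3153 and 2441. It was low in the same 4 mice as Hbb-bs. The low values were not 0: at the estimated depth, Hbb-bs rested on about 65.9 to 259 reads in these 4 mice, a level at which reads shared with other beta genes can contribute, which was not tested.

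Hbb-b1 and Hbb-b2 ran the other way. For Hbb-b1, Con-sa mice had 35832, 15053 and 37780 RPKM, B-sa mice 71434, 87642 and 79130, B+Con-FMT mice 67197, 55802 and 61737, and B+A10-FMT mice 59446, 43337 and 42544. For Hbb-b2, Con-sa mice had 7992, 3302 and 8425 RPKM, B-sa mice 14365, 18157 and 15943, B+Con-FMT mice 15214, 12236 and 13381, and B+A10-FMT mice 12999, 9140 and 9148. All Con-sa mice lay below all other mice for both genes. The group means of Hbb-b1 were, from high to low, 79402 ± 8107 (B-sa mice), 61579 ± 5699 (B+Con-FMT mice), 48442 ± 9538 (B+A10-FMT mice) and 29555 ± 12597 (Con-sa mice). The B+Con-FMT and B+A10-FMT mice overlapped for Hbb-b1, and the B-sa and B+Con-FMT mice did not.

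The share of Hbb-bs plus Hbb-bt in the adult beta RPKM was 41.4%, 75.3% and 35.1% in the Con-sa mice and 0.0497%, 0.0319% and 0.0220% in the B-sa mice. It was 0.0619%, 27.2% and 6.09% in the B+Con-FMT mice and 13.0%, 23.8% and 20.2% in the B+A10-FMT mice. As listed, the beta signal was therefore a mixture of both pairs in 8 mice and almost wholly Hbb-b1 and Hbb-b2 in the other 4. How reads were divided between the pairs was not tested in any mouse, so the size of each share is uncertain. The spread within the B+Con-FMT group (11.1% ± 14.2%) exceeded the distance of its mean from that of the B-sa group. Leaving out single mice moved the difference between B+Con-FMT and B-sa from 11.1 percentage points to between 3.04 (without B+Con-FMT 2) and 16.6 (without B+Con-FMT 1). Likewise, the difference between B+A10-FMT and B+Con-FMT was 7.88 points with all mice, 15.9 without B+Con-FMT 2 and 2.36 without B+Con-FMT 1.

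The sum over both pairs moved far less than the pairs did. Adult beta RPKM was 73435 ± 1997 for Con-sa mice, 95589 ± 10005 for B-sa mice, 85292 ± 7153 for B+Con-FMT mice and 72295 ± 9720 for B+A10-FMT mice. For the ratio of adult beta to adult alpha RPKM, Con-sa mice had 0.717, 0.695 and 0.691, B-sa mice 0.714, 0.733 and 0.774, B+Con-FMT mice 0.725, 0.724 and 0.784, and B+A10-FMT mice 0.756, 0.724 and 0.695. All B+Con-FMT mice lay above all Con-sa mice, by 0.724 against 0.717 at the nearest, and every other pair of groups overlapped. The means in the same order were 0.701 ± 0.0139, 0.740 ± 0.0305, 0.744 ± 0.0340 and 0.725 ± 0.0304. Mouse Con-sa 2, in which Hbb-bs and Hbb-bt were 75.3% of the beta signal, and mouse B-sa 1, in which they were 0.0497%, had ratios of 0.695 and 0.714.

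**Figure D2:**
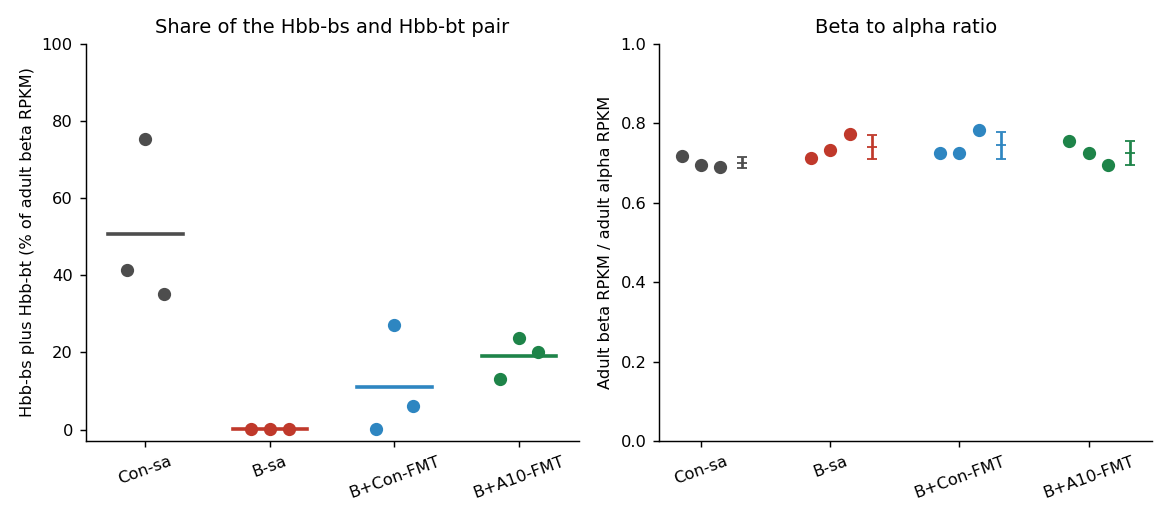
Left, the Hbb-bs plus Hbb-bt share (percent of adult beta RPKM) in each mouse, with a line at the group mean. Right, the ratio of adult beta to adult alpha RPKM in each mouse, with the group mean and SD beside the points. The share spans 0.0220% to 75.3% while the ratio spans 0.691 to 0.784.

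Within each pair the balance of the genes was narrow, apart from Hbb-bs and Hbb-bt in the mice where both were low. The Hbb-bs to Hbb-bt ratio was 4.20 to 4.76 in the 8 mice with a mixed beta signal. In the 4 mice with low pair levels it was 2.53, 1.05 and 0.787 (B-sa) and 2.48 (B+Con-FMT 1). The cause of these lower ratios was not tested. The Hbb-b1 to Hbb-b2 ratio was 4.97, 4.83 and 4.96 in the B-sa mice and 4.42 to 4.74 in the other 9. B+Con-FMT 1, which also had almost no Hbb-bs, was the lowest of these at 4.42. Hbb-bt and Hbb-b2 together held 16.7% to 18.5% of the beta signal in every mouse.

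The 3 embryonic genes stayed near the limit of detection. Hba-x, the embryonic alpha-type (zeta) gene, was 0.43 to 1.35 RPKM, with 0.737 ± 0.266 in B+A10-FMT and 1.14 ± 0.228 in B+Con-FMT as the lowest and highest group means. Hbb-bh1 was 0 to 0.87 RPKM and Hbb-y, the embryonic epsilon-type gene, was 0 to 0.43 RPKM. These levels correspond to about 4.2 to 13.1 reads of Hba-x, at most 6 reads of Hbb-bh1 and at most 3.1 reads of Hbb-y per mouse. Hbb-bh1 was listed at 0 in B+Con-FMT 1 and Hbb-y at 0 in B+A10-FMT 3. The groups overlapped for Hba-x and Hbb-bh1. For Hbb-y, the Con-sa mice (0.29, 0.43 and 0.43 RPKM) and the B+Con-FMT mice (0.29, 0.43 and 0.28 RPKM) lay above the B+A10-FMT mice (0.14, 0.14 and 0 RPKM). Their nearest values were about 1 read apart, so no difference was detectable at this depth.

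**Figure D3:**
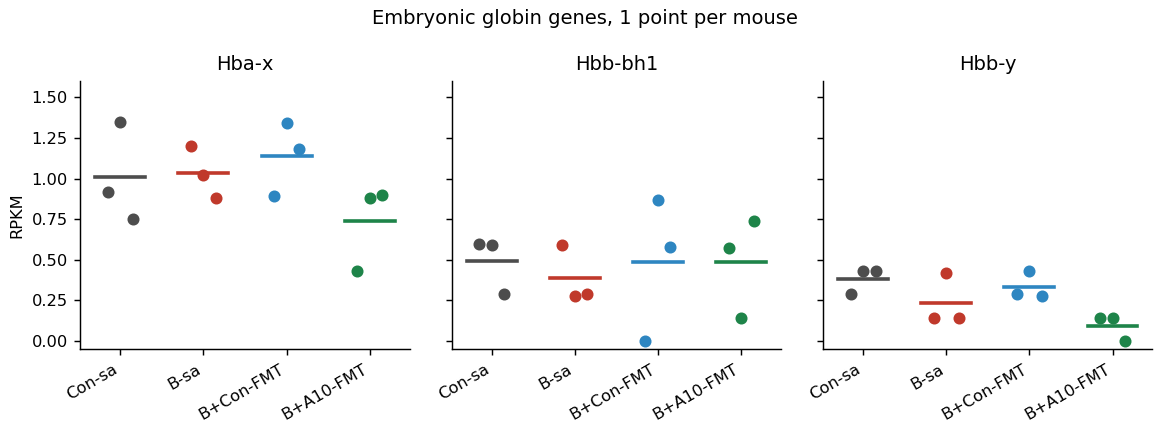
RPKM of Hba-x, Hbb-bh1 and Hbb-y, with 1 point per mouse and a line at each group mean. No mouse exceeds 1.35 RPKM for any of these genes, and the groups overlap for Hba-x and Hbb-bh1.

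In a limma fit across 12671 genes (log2(RPKM + 1), all 12 mice, called at a Benjamini-Hochberg adjusted p under 0.05), 7 of the 9 members entered. Hbb-bh1 and Hbb-y did not reach 1 RPKM in 3 mice. Between B-sa and Con-sa, 5 of the 7 were called, beside 14.5% of all genes, 3 higher (4.73% of all genes) and 2 lower (9.78%). The groups did not overlap for 6 of the 7 (34.0% of all genes), 4 higher (11.2%) and 2 lower (22.8%). Hba-a1 (log2 difference 0.30, SE 0.09), Hbb-b1 (1.53, SE 0.33) and Hbb-b2 (1.41, SE 0.34) were higher in B-sa. Hbb-bs (-10.63, SE 1.96) and Hbb-bt (-8.82, SE 1.72) were lower, while Hba-a2 (0.49, SE 0.16) was not called. Between B+Con-FMT and B-sa, 0 of the 7 members were called by limma, beside 0.844% of all genes (0.623% higher and 0.221% lower). The groups did not overlap for 2 of them (19.4% of all genes), Hbb-bs higher (10.4%) and Hbb-b1 lower (9.05%). The difference of Hbb-bs was 6.34 (SE 1.96), drawn from 1 mouse near the B-sa level and 2 mice far above it. Between B+A10-FMT and B-sa, 3 of the 7 were called, beside 5.27% of all genes: Hbb-bs (9.22, SE 1.96) and Hbb-bt (7.42, SE 1.72) higher (4.0% of all genes) and Hba-a1 (-0.38, SE 0.09) lower (1.27%). The groups did not overlap for 5 of the 7 (27.0% of all genes), 2 higher (19.7%) and 3 lower (7.38%). Between B+A10-FMT and B+Con-FMT, limma called 0, beside 10.4% of all genes (7.58% higher and 2.78% lower). Hba-a2 alone did not overlap between these groups and was lower (35.0% of all genes did not overlap, 23.8% higher and 11.2% lower). Since the members were picked from these contrasts, nothing is read from their counts.

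The split of called genes moved with the scaling. For B-sa against Con-sa, the calls were 599 up and 1239 down, against 966 and 736 under median-of-ratios scaling. In B+A10-FMT against B-sa the split was 507 higher and 161 lower, against 287 and 329. In B+A10-FMT against B+Con-FMT it was 960 and 352, against 551 and 695 under median-of-ratios scaling and 2100 and 239 once the RPKM outside globin was set equal in every mouse. For the remaining comparison, of B+Con-FMT and B-sa, it was 79 and 28, against 67 and 113 with that same scaling. The median difference over all genes stayed within 0.1 on the log2 scale under each.

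Genes that work with globin in red cell precursors gave more higher than lower calls when B-sa mice were compared with Con-sa mice. Of 66 tested genes in 6 lists (heme synthesis, globin chaperone and translation control, globin gene regulators, red cell membrane, iron uptake and erythropoietin, late red cell enzymes), 22 were higher and 2 lower, which is 36.4% against 14.5% of all genes. The median difference was 0.23 on the log2 scale over the lists and -0.04 over all genes. Of the 11 heme synthesis genes, 5 rose, among them Alad (0.33, SE 0.08, limma adjusted p = 0.0188). Alas2, which makes the first and rate-limiting step of heme synthesis in red cells, was 593 ± 43.6 RPKM in Con-sa and 691 ± 71.6 in B-sa and was not called (limma adjusted p = 0.102). Of the 13 regulators, 4 rose and 1 fell. Gata1, the master factor of the red cell lineage, was 61.8, 55.7 and 66.5 RPKM in Con-sa and 78.5, 90.1 and 84.5 in B-sa (0.45, SE 0.08, limma adjusted p = 0.00604), without overlap. Bcl11a, which silences embryonic and fetal globin genes and also acts in B cells, fell (-0.25, SE 0.06, limma adjusted p = 0.0159).

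The membrane list had 5 of 17 genes higher and 1, the glucose transporter Slc2a1, lower. Slc4a1, the anion exchanger and most abundant of these, was not called (0.15, SE 0.13, limma adjusted p = 0.436). In the iron and erythropoietin list 4 of 8 genes rose, including Tfr2, a transferrin receptor (0.43, SE 0.11, limma adjusted p = 0.0236), and Epor, the erythropoietin receptor (0.40, SE 0.11, limma adjusted p = 0.0294). Of the 15 late enzymes 4 rose, including Car2, a carbonic anhydrase (0.42, SE 0.09, limma adjusted p = 0.0142), and Prdx2, a peroxide-removing enzyme of red cells (0.36, SE 0.07, limma adjusted p = 0.00793). With curated transcripts alone, Car2 was at -0.016 (limma adjusted p = 0.96). Of the 2 tested genes of the chaperone and translation list, limma called 0, and 0 had an unadjusted p under 0.05. Hbq1b, a theta-type globin gene beside the alpha genes, also rose, from 30.6 ± 2.66 to 41.3 ± 7.37 RPKM (0.41, SE 0.11, limma adjusted p = 0.0295). The count of 24 called partner genes rested on single mice: it was 2 without B-sa 2, 6 without Con-sa 2, 9 without Con-sa 1 or without B-sa 3, 13 without Con-sa 3, and 48 without B-sa 1, while the calls over all genes ran from 513 without B-sa 2 to 2100 without B-sa 1. Gata1 and Prdx2 were called in each of these fits, whereas Car2, Tfr2 and Epor were lost in 2, 3 and 4 of them.

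In B+Con-FMT against B-sa, limma called 0 of the 66 partner genes, beside 0.844% of all genes. Of the 66, 20 had an unadjusted p under 0.05, a count given without the share of all genes. The median was -0.14 over the lists and -0.0041 over all genes, with 60 of the 66 below 0. Without B-sa 1, 18 were called, all lower, in a fit that called 466 of all genes in place of 107. In B+A10-FMT against B-sa, 1 of 66 (1.52%, beside 5.27% of all genes) was called, Prdx2 (-0.27, SE 0.07, limma adjusted p = 0.039). The median was -0.095 over the lists and 0.0457 over all genes. Without B-sa 1, 12 were called (2 higher and 10 lower), in a fit that called 832 of all genes in place of 668. The Prdx2 call was lost in 9 of the 12 fits that left out a mouse. In B+A10-FMT against B+Con-FMT, 1 of 66 (1.52%, beside 10.4% of all genes) was called, Cat (catalase, 0.25, SE 0.06, limma adjusted p = 0.0213). The median was 0.077 over the lists and 0.0464 over all genes. The call of Cat was lost without B+Con-FMT 1, B+Con-FMT 2 or B+A10-FMT 2.

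Genes for the clearance of hemoglobin and heme, which act mostly in macrophages, showed another pattern. In B+A10-FMT against B+Con-FMT, 5 of 12 rose and none fell, beside 7.58% of all genes called higher and 2.78% lower, while Hba-a1 was 99360 ± 9302 and 114838 ± 13485 RPKM in these groups. Slc40a1 (ferroportin, the cellular iron exporter) was 138, 156 and 129 RPKM in B+A10-FMT and 79.1, 89.5 and 94.7 in B+Con-FMT (0.68, SE 0.10, limma adjusted p = 0.00399). It was called whichever mouse was left out. Hmox1, which degrades heme (0.58, SE 0.12, limma adjusted p = 0.0164), Lrp1, a receptor for heme bound to hemopexin (0.48, SE 0.12, limma adjusted p = 0.0246), and Spic, a factor of red pulp macrophages (0.44, SE 0.11, limma adjusted p = 0.0338), were each lost without B+Con-FMT 1 or B+A10-FMT 2, and Lrp1 and Spic also without B+Con-FMT 2 or B+A10-FMT 1. Against B-sa, Slc40a1 (0.55, SE 0.10, limma adjusted p = 0.0144) and Spic (0.50, SE 0.11, limma adjusted p = 0.0307) rose, with the Slc40a1 call lost without B+A10-FMT 2 and the Spic call lost in 5 fits. Between B-sa and Con-sa, Blvrb, a biliverdin reductase (0.37, SE 0.09, limma adjusted p = 0.0187), and its relative Blvra rose. The Blvrb call was lost without Con-sa 2 or B-sa 2. Ftl1 (ferritin light chain), the most abundant gene of the list, was not called in any of the 4 comparisons.

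**Figure D4:**
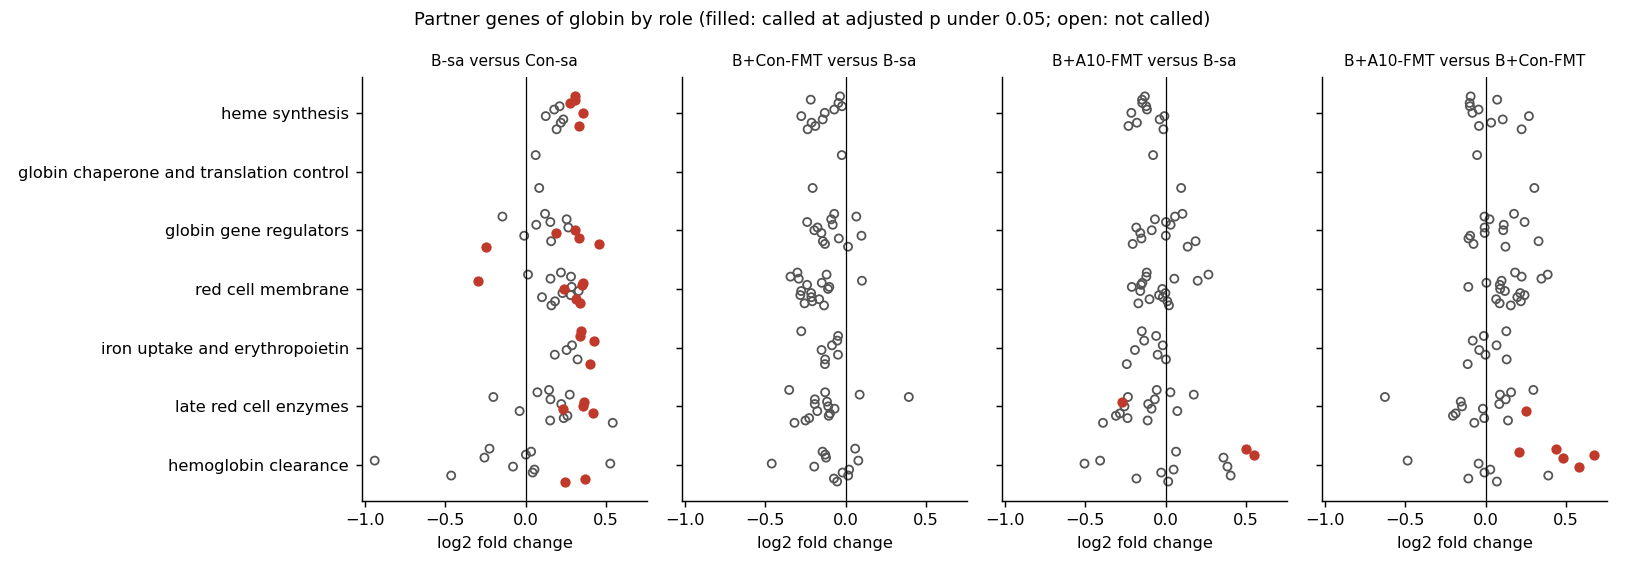
Log2 fold change of each tested partner gene and clearance gene, by list (rows) and comparison (panels), with filled points for genes called by limma at an adjusted p under 0.05 and open points for the rest. For B-sa and Con-sa the points lie mostly right of 0, with 22 partner genes called higher, and 5 clearance genes are called higher with B+A10-FMT than with B+Con-FMT.

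All 20 lymphocyte, spleen macrophage and spleen mesenchyme markers were above 0 in every mouse, as were all 8 pancreas acinar markers, so detection alone does not set the labelled spleen apart. Summed levels of the marker lists of other cells were as follows. The 5 neutrophil markers summed to 1790 to 1865 RPKM for Con-sa mice, 3198 to 5219 for B-sa mice, 2037 to 2996 for B+Con-FMT mice and 1776 to 4457 for B+A10-FMT mice, and limma called 0 of the 5 between the first pair of groups, where 5 had an unadjusted p under 0.05. The 5 B cell markers summed to 1716 to 1901, 1311 to 1567, 1530 to 1615 and 1529 to 1590 RPKM in the same order. Of these, 4 were called lower between that pair, beside 9.78% of all genes. The 5 platelet markers summed to 791 to 850, 989 to 1215, 776 to 1203 and 829 to 1210 RPKM. Between B-sa and Con-sa all 5 platelet markers were higher without overlap (11.2% of all genes) and had an unadjusted p under 0.05. Limma called 1 of them higher, Gp9, beside 4.73% of all genes. The 5 T cell markers summed to 268 to 334 RPKM in the B+Con-FMT mice and 202 to 259 in the others. The 8 pancreas acinar markers summed to 6421 to 10306 RPKM in B+Con-FMT, against 352 to 7356 in the other groups. Limma called 0 of these 8 in each of the 4 comparisons, and all 8 had an unadjusted p under 0.05 between B+Con-FMT and B-sa. The 6 kidney markers summed to 76.7 to 119 RPKM in Con-sa and 0.71 to 63.2 in the others, with Umod, Slc12a1 and Aqp2 at 0 in 4, 5 and 10 mice. The 5 spleen macrophage markers summed to 299 to 388 RPKM in B+A10-FMT and 217 to 294 in the others. Limma called 4 of them higher with B+A10-FMT than with B+Con-FMT (7.58% of all genes) and 2 higher than with B-sa (4.0%). The part of these cells in the globin and clearance values was not tested.

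Over the 12 mice, the genes whose log2(RPKM + 1) ran most like the log2 adult globin sum included Marchf2 (Pearson r = 0.95), Oaz1 (0.89), Mpc2 (0.89) and Tcf19 (0.88). Within groups, after removal of group means, r was 0.86 for Marchf2, 0.83 for Oaz1, 0.73 for Mpc2 and 0.63 for Tcf19. Marchf2 ran from 135 to 194 RPKM. These values share libraries with the globin sum, and globin RPKM enters every total.

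The genes most like the Hbb-bs plus Hbb-bt share were different ones. The 5 highest were Trim30b (r = 0.96), Gm38525 (0.95), Trim30d (0.93), Unc119b (0.93) and Trim5 (0.91), and the 5 lowest were Gata1 (-0.92), Ptpa (-0.92), LOC100044627 and LOC100862455 (both -0.91, with identical values) and Trim12c (-0.90). Of these 10, 5 lay within 1 Mb of the beta-globin cluster on chromosome 7. Over all 9 tested genes in that window, 6 had an absolute r of at least 0.8, against 1.94% of 12662 tested genes outside the globin family. The 9 were the olfactory receptor gene Olfr613 on the Hbb-bt side, and Trim34a, Trim5, Trim34b, Trim12c, Gm38525, Trim30b, Trim30a and Trim30d, at 391 to 617 kb on the Hbb-y side (RefSeq, GRCm38.p6). For Trim30d, Con-sa mice had 3.94, 7.38 and 3.17 RPKM, B-sa mice 0.40, 0.54 and 0.27, B+Con-FMT mice 0.20, 2.03 and 0.85, and B+A10-FMT mice 1.88, 3.71 and 2.16. Like Hbb-bs, it was lowest in the B-sa mice and B+Con-FMT 1 and highest in Con-sa 2. For Trim12c, Con-sa mice had 22.7, 16.0 and 25.3 RPKM, B-sa mice 35.5, 34.8 and 32.4, B+Con-FMT mice 31.2, 24.8 and 31.5, and B+A10-FMT mice 30.6, 34.0 and 35.4. It was lowest in Con-sa 2, where the share was highest, but the B+A10-FMT mice overlapped with the B-sa mice (-0.04, SE 0.14, limma adjusted p = 0.897) although their shares did not.

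The likeness held in part without the most extreme mice. Spearman's rho was 0.94 for Trim30b, 0.92 for Trim30d, 0.91 for Gm38525, 0.84 for Trim34a, 0.80 for Trim5 and -0.73 for Trim12c. Without Con-sa 1 and Con-sa 2, the mice farthest from the median share, Pearson r was 0.94 for Trim30b, 0.93 for Trim30d, 0.90 for Gm38525, 0.80 for Trim5, 0.74 for Trim34a and -0.63 for Trim12c. Trim30a had r = 0.73, rho = 0.74 and r = 0.62 without those mice. Trim34b (r = 0.38) and Olfr613 (r = -0.26) were not close to the share in either set. Within groups r was 0.96 for Gm38525, 0.89 for Trim30d, 0.88 for Trim30b, -0.87 for Trim12c, 0.83 for Trim5 and 0.82 for Trim34a. It was weaker for Trim30a (0.66), Trim34b (0.43) and Olfr613 (-0.37). Strong within-group values were not particular to these neighbors. On other chromosomes, r was -0.97 for LOC100044627 and LOC100862455, -0.84 for Ptpa, 0.71 for Unc119b and -0.68 for Gata1.

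Between B-sa and Con-sa, limma called 7 of the 9 neighbors, beside 14.5% of all genes. Trim12c was higher in B-sa, and Trim34a, Trim5, Gm38525, Trim30b, Trim30a and Trim30d were lower. Trim30d differed by -1.99 (SE 0.35, limma adjusted p = 0.00865) and Trim30b by -1.38 (SE 0.20, limma adjusted p = 0.00376). Trim34a, Gm38525, Trim30b and Trim30d were called whichever mouse was left out, while Trim5 and Trim12c were lost without B-sa 2 and Trim30a in 9 fits. Limma called 0 of the 9 in each of the other 3 comparisons. Of all genes it called 0.844% in B+Con-FMT against B-sa, 5.27% in B+A10-FMT against B-sa and 10.4% in B+A10-FMT against B+Con-FMT. The number of neighbors with an unadjusted p under 0.05 was 0 in B+Con-FMT against B-sa and 7 in both B+A10-FMT comparisons. In both, Olfr613 was lower (-0.31 and -0.36) and the rest of the 7 were higher. The share of all genes at this unadjusted threshold is not given. Gm38525 overlaps Trim30b, and the Trim genes here are members of 1 gene family whose sequences were not compared, so the assignment of reads among them is uncertain.

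**Figure D5:**
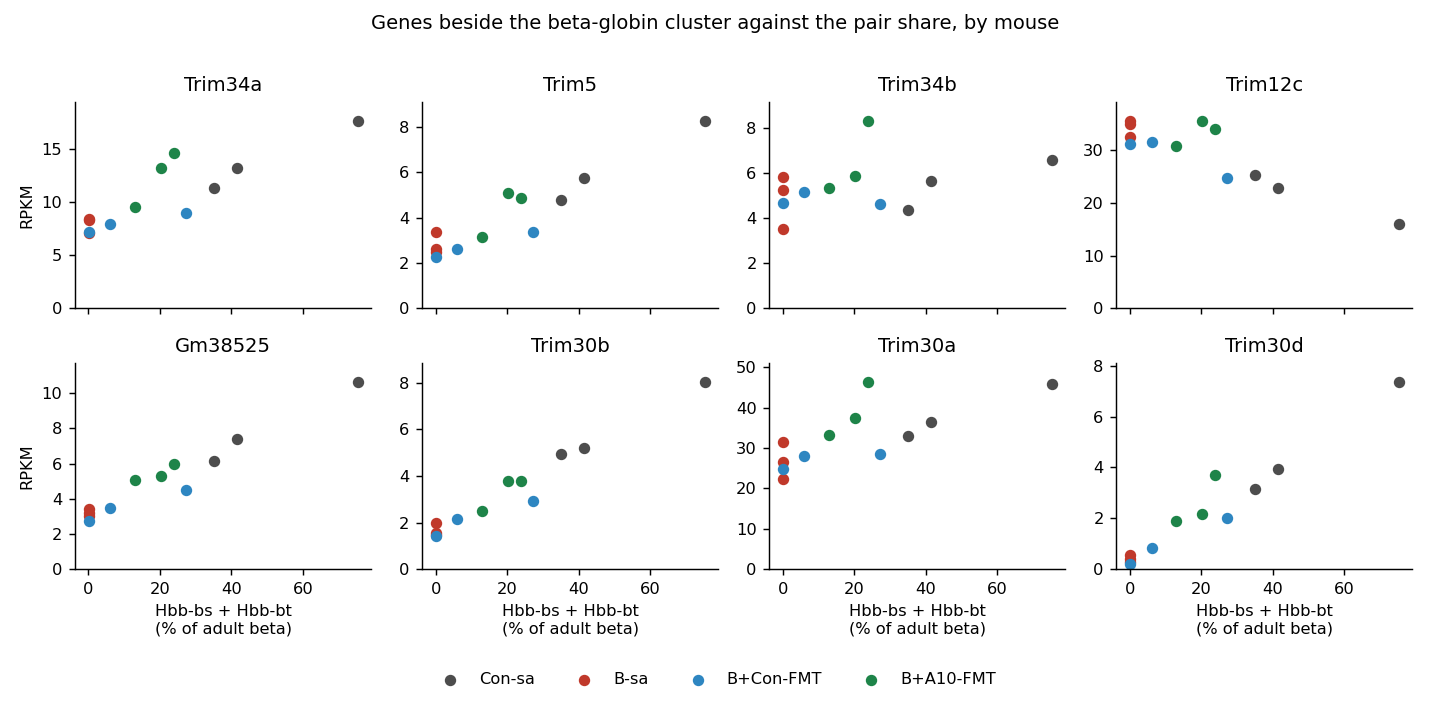
RPKM of the 8 Trim-cluster genes beside the beta-globin cluster (vertical axes) against the Hbb-bs plus Hbb-bt share of adult beta RPKM (horizontal axes, percent), with 1 point per mouse colored by group. Trim30b, Trim30d and Gm38525 climb with the share, Trim12c declines, and Trim34b shows no clear slope.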

How the data were processed

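Spleen RNA of 12 mice was enriched with oligo(dT) and sequenced. The study's methods name an Illumina HiSeq and SOAPaligner, whereas the submitters' processing notes list HISAT, Bowtie2 and mm10 without roles and the labels give a BGISEQ protocol. Which of these made the values is not given in the sources used here. The authors deposited RPKM per transcript, 1 table per mouse, without counts. RPKM of 60654 transcripts were summed to 18221 genes. Depth, estimated from the steps between low RPKM values, was 14.7 to 15.4 M reads, so read numbers are approximate.

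The 12671 genes that reached 1 RPKM in 3 or more mice were tested with limma 3.58.1 in R 4.3.3 (trend, robust, group only, two-sided) on log2(RPKM + 1), a scale that understates changes of low genes. Nothing in the labels says how the 3 mice of a group were housed, so p-values measure the spread between these mice. The members and lists were chosen with earlier results of these data known, and Ahsp was not found among the listed symbols. Named genes were the members, the globin family, the most abundant gene of each list, up to 5 called genes of largest change per comparison, the most alike genes and the tested genes within 1 Mb of the beta cluster. Alad, Bcl11a, Slc2a1, Blvra and other genes outside this rule were named after their values were seen. Some genes that met the rule are not reported here. Correlations are descriptions. The alternatives were a pseudocount of 0.1, other filters, a replicate block, fits of 2 groups, single mice left out, 2 scalings and NM transcripts alone. Figures were drawn with matplotlib 3.10.9.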

Additional observations from a re-analysis of the deposited data

How the results depend on the processing

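Each of the 9 globin genes had 1 listed transcript, so the summed adult globin, the pair share and the beta to alpha ratio were identical with curated (NM) transcripts alone and with the highest transcript. Scaling left the direction of the summed adult globin in place. Leaving out single mice moved the summed difference on the log2 scale to 0.25 to 0.39 (B-sa versus Con-sa), -0.25 to -0.09 (B+Con-FMT versus B-sa), -0.48 to -0.31 (B+A10-FMT versus B-sa), and for the FMT groups against each other to -0.31 to -0.14. In the same order, the share moved to -58.3 to -38.2, 3.04 to 16.6, 16.5 to 21.95 and 2.36 to 15.9 percentage points, and the ratio to 0.0225 to 0.0523, -0.0153 to 0.021, -0.0302 to 0.002 and -0.0344 to 0.0006. The counts of genes called were 1838, 107, 668 and 1312, and moved to 513 to 2100, 19 to 466, 106 to 832 and 218 to 1558 without single mice. Partner counts were 24, 0, 1 and 1, and moved to 2 to 48, 0 to 18, 0 to 12 and 0 to 6. The fits of only the compared groups, which hold fewer mice, called 972, 32 and 158 genes in the first 3 comparisons, and 7 partner genes in the first, 0 in the B+A10-FMT versus B-sa comparison and 6 in the last. With NM transcripts alone, 741, 25, 203 and 546 genes were called, with 13 partner genes in the first comparison and 2 in the last. For the B+A10-FMT and B-sa pair the single partner call turned from 1 lower to 1 higher, since the Prdx2 call was lost and another gene was called. Car2 in B-sa versus Con-sa turned to -0.0159. Without a filter, 71 genes were called for the B+Con-FMT and B-sa pair, and 15 and 0 partner genes for B-sa versus Con-sa and B+A10-FMT versus B-sa. Setting the RPKM outside globin equal in every mouse gave 180 genes for the B+Con-FMT and B-sa pair and 2339 genes and 5 partner genes in the last comparison. Median-of-ratios scaling gave 2 partner genes for the B+A10-FMT and B-sa pair and 0 in the last comparison, and RPKM of at least 1 in every mouse gave 2 in the last. The cause of these shifts was not tested.

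Same-numbered mice of different groups did not deviate together (correlations of -0.37 to 0.19), so the replicate numbers do not pair mice. With the replicate block, 1462, 85, 417 and 917 genes were called, and 18, 0, 0 and 1 partner genes. Correlations of the neighbors with the share were also computed with a pseudocount of 0.1 and without each mouse, choices made after seeing the data, and none changed sign. Without counts, the depth limits the embryonic genes, at 13.1 reads or fewer per mouse.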

Other observations

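The other genes of the globin family were low, at no more than 12.74 RPKM apart from Hbq1b. Cygb (cytoglobin) was 7.24 to 12.74 RPKM, and limma called it in none of the 4 comparisons. Its lowest unadjusted p was 0.0758. Mb (myoglobin of muscle) was listed at 0 in all Con-sa and all B+A10-FMT mice. It was at 0.08, 0.16 and 0 RPKM in B-sa and at 0.62, 0.28 and 2.60 RPKM in B+Con-FMT. Ngb (neuroglobin) was 0.09 to 0.40 RPKM. Hbb-bh2, another gene of the beta cluster, was listed at 0 in 10 mice and at 0.16 and 0.17 RPKM in B+Con-FMT 1 and B+A10-FMT 3. Hbq1a, the second theta-type gene, was 1.19 to 3.98 RPKM, with 3.98 in B+A10-FMT 3 and 3.69 in B-sa 2, and was not called, with means of 2.01 RPKM in the Con-sa and 2.99 RPKM in the B-sa mice.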
